A study of Drosophila melanogaster with 2 samples.

Results

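The peaks described here are those of tagged Huckebein at divergent promoters, places where 2 protein-coding genes on opposite strands begin close together and are read away from each other. A peak was taken when its summit lay within 500 bp of an annotated start of at least 1 gene on each strand, and 790 of the 7220 peaks of the combined list met this rule (10.9%, exact binomial 95% interval 10.2 to 11.7). They make up 25.1% of the 3150 peaks within 500 bp of any protein-coding start. The data come from chromatin immunoprecipitation and sequencing of 2 biological replicates, each of whole embryos of Drosophila melanogaster collected over 0 to 24 h of age. The embryos were of the hkb-GFP strain, transgenic flies that express Huckebein fused to eGFP, and the antibody was against GFP, per the sample descriptions (the antibody field reads hkb). The labels give neither the promoter that drives the fusion nor whether untagged Huckebein remained. There was 1 group and no second genotype, treatment or stage, sex was not recorded, and all tissues and stages of the collection were pooled in each library. A possible control experiment is mentioned in the labels and was not analysed here, so no peak can be assigned to the tagged protein by comparison with a sample that lacks it.

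Huckebein is a zinc finger repressor of the Sp family that acts at both poles of the early embryo, where it limits the mesoderm and helps to form the gut. Divergent promoters are common in the compact fly genome: the starts share a stretch of open chromatin with few nucleosomes, and many of these genes are housekeeping genes that run in most cells. Insulator protein BEAF-32, which binds CGATA, the factor DREF, which binds TATCGATA, and M1BP, which binds the core promoter element called motif 1, are known from such promoters.

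The DNA of 3 of the strongest pairs, each with starts between 201 and 300 bp apart, is shown because, of the spacing groups described here, this one had the highest share of pairs with a peak and the highest median signal value. These 3 were chosen after their values were seen. Each line gives the plus strand, read from the RefSeq Release 6 assembly at dm6 coordinates, from the base after the start of the minus-strand gene, named before the other, to the base before the start of the plus-strand gene, and capitals mark the summit with 10 bases on either side.
CG7601 and CIA30, chr3R:29736746-29736964: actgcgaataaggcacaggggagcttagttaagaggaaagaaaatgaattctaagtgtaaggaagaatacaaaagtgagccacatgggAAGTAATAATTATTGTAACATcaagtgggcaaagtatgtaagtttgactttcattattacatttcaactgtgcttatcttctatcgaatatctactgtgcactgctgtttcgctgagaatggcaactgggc
Tcs5 and CHMP2B, chr3L:5139396-5139618: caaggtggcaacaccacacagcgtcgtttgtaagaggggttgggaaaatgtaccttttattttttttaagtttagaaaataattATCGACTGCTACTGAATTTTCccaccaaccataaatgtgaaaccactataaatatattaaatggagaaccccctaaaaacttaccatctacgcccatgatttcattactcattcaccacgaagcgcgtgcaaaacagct
Art3 and mRpS10, chr3R:15229409-15229664: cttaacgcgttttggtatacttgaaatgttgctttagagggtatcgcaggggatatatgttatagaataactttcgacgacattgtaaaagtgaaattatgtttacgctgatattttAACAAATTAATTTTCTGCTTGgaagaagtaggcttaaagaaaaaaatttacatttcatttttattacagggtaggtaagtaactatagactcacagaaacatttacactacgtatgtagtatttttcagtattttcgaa

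In all 3 the summit lies near the middle of the stretch. The next 6 lines show, in the same way, some of the stronger pairs with starts at most 200 bp apart, a summit between the starts and no annotated exon in the stretch; others of this kind are not shown. In the Mnat9, RpS27 and CG10747 stretches the summit lies 13 to 21 bp from 1 start, and in the mgr stretch it is almost central, 84 and 88 bp from the starts.
Mnat9 and CG1792, chr3R:31616161-31616302: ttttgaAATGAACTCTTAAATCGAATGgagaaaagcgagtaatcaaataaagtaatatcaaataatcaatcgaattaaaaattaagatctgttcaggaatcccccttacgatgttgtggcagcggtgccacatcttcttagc
CG10747 and Pyroxd1, chr2L:20091349-20091434: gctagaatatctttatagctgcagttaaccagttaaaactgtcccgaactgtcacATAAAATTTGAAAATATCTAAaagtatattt
RpS27 and Nup37, chr3R:25247515-25247657: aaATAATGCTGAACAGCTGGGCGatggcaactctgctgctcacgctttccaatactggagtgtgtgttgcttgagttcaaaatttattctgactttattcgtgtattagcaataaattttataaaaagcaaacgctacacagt
mgr and Irbp, chr3R:11409876-11410046: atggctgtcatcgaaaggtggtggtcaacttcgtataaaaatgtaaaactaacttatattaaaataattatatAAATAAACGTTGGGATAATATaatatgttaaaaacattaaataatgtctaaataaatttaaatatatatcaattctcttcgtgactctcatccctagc
Bdp1 and CG6565, chr2L:13373891-13374018: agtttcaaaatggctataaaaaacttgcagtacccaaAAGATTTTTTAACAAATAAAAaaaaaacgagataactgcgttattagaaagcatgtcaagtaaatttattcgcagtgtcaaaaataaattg
GCS2beta and CG5131, chr2L:17484308-17484500: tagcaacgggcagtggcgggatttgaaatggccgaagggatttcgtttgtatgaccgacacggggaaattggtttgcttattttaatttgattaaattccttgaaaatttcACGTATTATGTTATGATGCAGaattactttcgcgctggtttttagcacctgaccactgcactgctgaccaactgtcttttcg

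Peaks were ranked by the authors' signal value, a score without a stated unit that orders peaks within 1 list. The peak of highest value among the 790 was that of Chro (FBgn0044324), which encodes the interband protein Chromator, and Ssl1 (FBgn0037202), a subunit of the general transcription factor TFIIH, at chr3L:22878730-22879078. Its summit lay 84 bp inside Chro and 189 bp upstream of Ssl1. The combined list gave it 1736, against 972 for replicate 1 and 759 for replicate 2. The second, at chr2L:13835297-13835627, lay between CenG1A, a centaurin-type GTPase-activating protein, and the mitochondrial ribosomal protein gene mRpS23, and reached 1733 (combined), 924 (replicate 1) and 781 (replicate 2). Both replicates held these peaks, and they were number 7 and number 8 of the whole list.

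The remaining peaks of the strongest 10 were at CIA30 (a complex I assembly factor) and CG7601 with 1521 in the combined list, at CHMP2B (an ESCRT-III subunit) and Tcs5 (tRNA modification) with 1494, and at mRpS10 and Art3 (an arginine methyltransferase) with 1452. They were followed by CG9147 and Fbw5 (1427), Mtl and CG5611 (1403), CG17294 and CG13390 (1329), CG7632 and CG11309 (1217), and CG12194 and tank (1162). In the replicates' ranked lists these 8 reached 666 to 883 in replicate 1 and 487 to 656 in replicate 2, and all 8 were in both thresholded lists. At the low end were Spt-I, a serine palmitoyltransferase subunit, with GLaz (2.28), the ribosomal protein gene RpL29 with Sgf29 (2.62), Non3 with mTerf5 (2.87), garz with CG8841 (2.93), and COX7C, a subunit of cytochrome c oxidase, with oys (3.05). Nearly all such low values were those of companion peaks: 33 of the 34 peaks with a value under 20 had another listed summit within 250 bp, whose value had a median of 119. The weak RpL29 peak, for example, stands beside a peak of 111 at the same pair.

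Signal values were higher at divergent pairs than in the other classes. The median was 125 (interquartile range 87.5 to 220) at the 790 peaks, against 102 (76.6 to 166) at the 2360 peaks within 500 bp of coding starts of 1 strand only, here called single-strand promoters, and 107 (79.0 to 168) at the 4070 peaks elsewhere. Over the whole list the median was 107. The 95% intervals of the medians, 117 to 131 at divergent pairs, 99.3 to 104 at single-strand promoters and 104 to 109 elsewhere, did not overlap between divergent pairs and the other classes. Peaks at divergent pairs were 10.9% of the whole list. They made up 22 of its strongest 100 peaks (22.0%, 14.3 to 31.4). Of the strongest 500 they were 82 (16.4%, 13.3 to 19.9), and of the strongest 1000 they were 164 (16.4%, 14.2 to 18.8). No test was made of these differences, because peaks are not replicates, and the intervals cover counting error over peaks only.

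The same order was seen in each replicate. Every peak was given the highest signal value among the candidates that overlapped it in a replicate's own ranked list. In replicate 1 the median was 75.5 at divergent pairs (788 of 790 with a candidate), against 61.4 at single-strand promoters and 63.2 elsewhere. In replicate 2 it was 59.4 at divergent pairs (788 with a candidate), against 48.3 at single-strand promoters and 49.8 elsewhere. Replicate 1 gave the higher value at 80.2% of the 787 peaks with both values, with a median ratio of 1.27. The Spearman correlation of the replicates across these peaks was 0.831, as a description of the pair of libraries. The value depends on library depth, which is unknown, so a difference between the replicates' values cannot be read as one in binding.

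**Figure D1:**
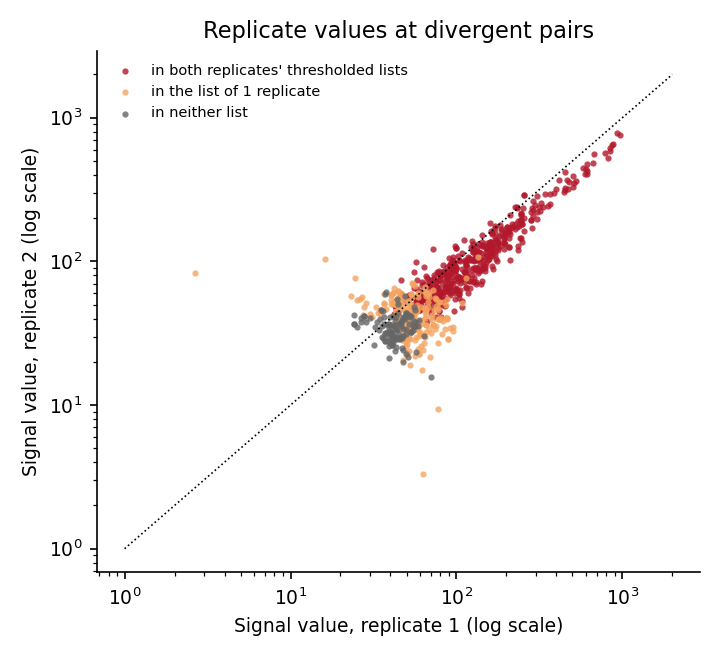
Signal value in replicate 2 against replicate 1, both on log axes, for the 787 peaks at divergent pairs with a candidate in each ranked list; the dotted line marks equal values. Points in both thresholded lists (red) form the upper arm, mostly under the line, and the peaks in neither list (grey) lie at the low end.

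More peaks at divergent pairs were held by both replicates, that is, overlapped a thresholded peak of each by at least 1 bp. This was true of 463 of 790 (58.6%, exact binomial 95% interval 55.1 to 62.1), against 1073 of 2360 at single-strand promoters (45.5%, 43.4 to 47.5) and 1924 of 4070 elsewhere (47.3%, 45.7 to 48.8). The share over all peaks was 47.9%. Replicate 1 held 597 of the 790 and replicate 2 held 540, and 116 (14.7%) were in neither list, against 22.7% at single-strand promoters and 23.4% elsewhere. The list was cut into quintiles by signal value, and from the lowest to the highest 22.0%, 6.40%, 35.7%, 87.6% and 99.6% of the peaks at divergent pairs were held by both replicates. The share was thus lower in the second quintile than in the lowest and rose from there. At single-strand promoters the shares were 12.4%, 5.44%, 37.0%, 86.5% and 98.5%. The intervals of both promoter classes overlapped in every quintile, narrowly in the lowest, where the weak companions lie, with 15.0 to 30.3 at divergent pairs and 9.68 to 15.6 at single-strand promoters.

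**Figure D2:**
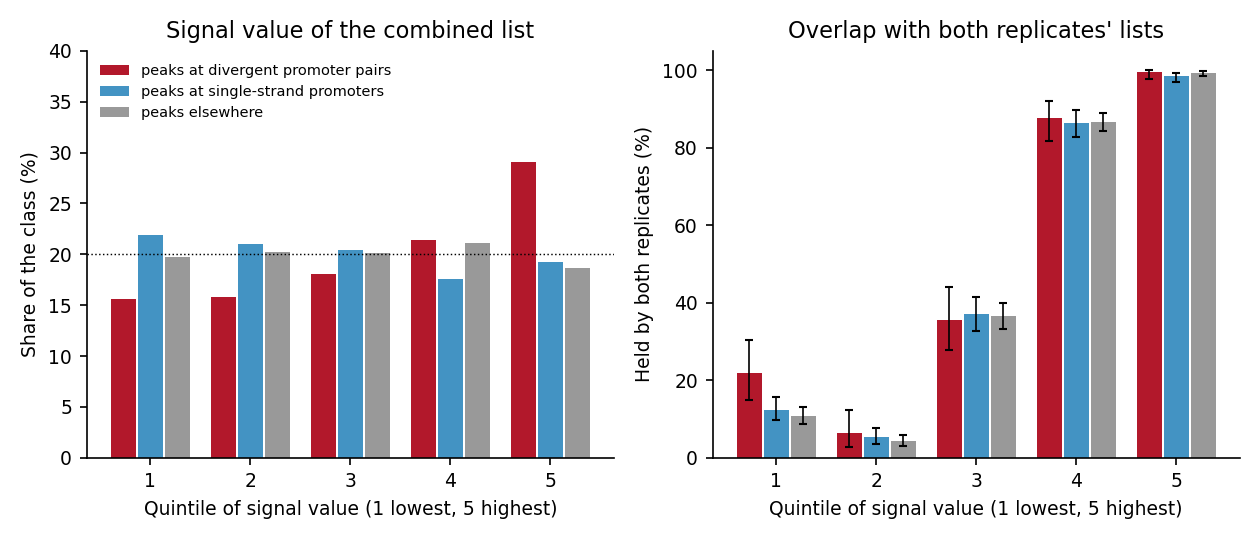
Left, share of each class of peaks (%) in each quintile of the combined list by signal value, with a dotted line at 20%; right, share held by both replicates (%) with exact 95% intervals. The highest quintile holds 29.1% of the peaks at divergent pairs, against 19.2% of those at single-strand promoters and 18.7% of those elsewhere.

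The arrangement of the genes was mostly head to head. At 765 of the 790 peaks (96.8%) the nearest minus-strand start had the lower coordinate, so that the genes were read away from each other, with a median distance between starts of 279 bp (interquartile range 200 to 377). At the other 25 the starts overlapped, each gene beginning inside the other. The peaks belonged to 728 different gene pairs by nearest start, of which 667 had 1 peak, 60 had 2 and 1 had 3. At the pairs with more than 1 peak the median distance between the outermost summits was 204 bp. Only 45 peaks had more than 2 coding genes within 500 bp, up to 10 genes, and 14 also had an annotated noncoding start within that distance. At the edge of the rule, the peaks of kipf and Rfk (farther start 498 bp away, signal value 79.8), RpLP0 and CG7130 (499 bp, 16.6) and Taldo and CG3735 (500 bp, 72.1) lay just inside. Those of RpL31 and CG12929 (210), CG32599 and mRNA-cap (114) and CG43447 and CG44290 (90.2) lay just outside, at 501 bp.

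How often a divergent pair carried a peak differed with the distance between its starts. The annotation holds 2720 pairs of protein-coding genes on opposite strands with starts at most 1000 bp apart, and 792 of them (29.1%, exact binomial 95% interval 27.4 to 30.9) had a summit within 500 bp of both genes; a peak near several genes can count for more than 1 pair. With starts 201 to 300 bp apart it was 237 of 529 pairs (44.8%, 40.5 to 49.2). With 1 to 100 bp it was 140 of 419 (33.4%, 28.9 to 38.2), with 101 to 200 bp 94 of 354 (26.6%, 22.0 to 31.5) and with 301 to 500 bp 227 of 651 (34.9%, 31.2 to 38.7). Pairs whose starts overlapped had a peak in 34 of 105 cases (32.4%). The share thus dipped at 101 to 200 bp and was highest at 201 to 300 bp, where its interval overlapped none of those of the other head-to-head groups.

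In each replicate the same one of these groups stood highest. Of the pairs with starts 201 to 300 bp apart, replicate 1 had a peak at 37.6% and replicate 2 at 35.2%, and of those 101 to 200 bp apart replicate 1 had one at 21.8% and replicate 2 at 16.9%. In steps of 50 bp the high shares ran on past this group: 47.5% of pairs 201 to 250 bp apart had a peak, 42.6% at 251 to 300 bp and 45.0% at 301 to 350 bp, then 34.5% at 351 to 400 bp and 25.5% at 401 to 450 bp. In all, replicate 1 had a peak at 635 pairs and replicate 2 at 579, and 473 pairs had one in all 3 lists. With starts 501 to 1000 bp apart 60 of 662 pairs had a peak (9.06%). Since a summit must be within 500 bp of both starts, the room that the rule leaves shrinks as the distance grows. This holds in all groups, most of all in the last, and the shares were not adjusted for it.

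**Figure D3:**
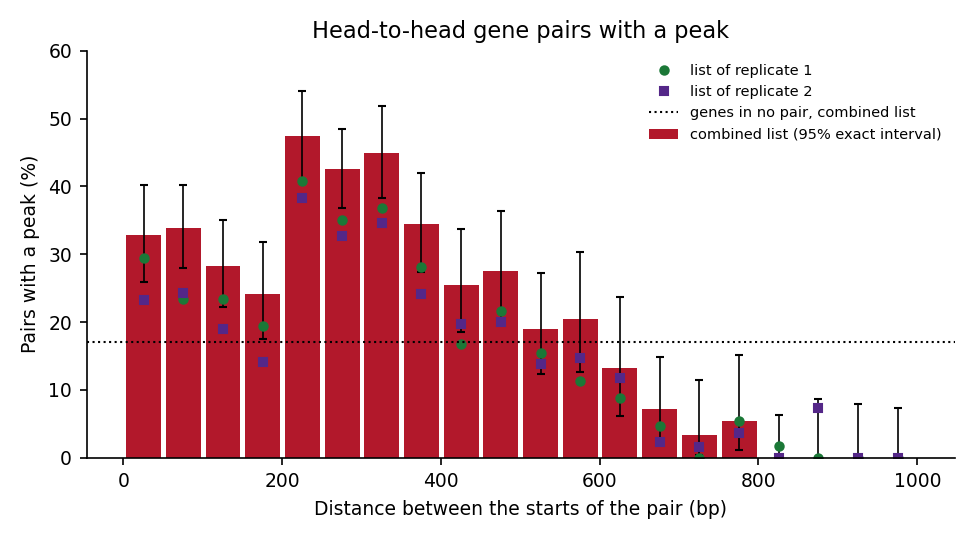
Share of annotated head-to-head gene pairs with a peak (%, bars, exact 95% intervals) by the distance between their starts in steps of 50 bp. Points give the shares from each replicate's own list. The dotted line is the 17.0% of genes in no such pair with a summit within 500 bp of a start. It is a share of single genes and not of pairs, and the like share of genes in a pair was 36.7%. The bars from 201 to 350 bp stand between 42.6% and 47.5%, and that from 151 to 200 bp at 24.2%.

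Per gene, 1887 of the 5141 genes in a divergent pair had a summit within 500 bp of a start of their own (36.7%, 35.4 to 38.0), against 1498 of the 8804 genes in no such pair (17.0%, 16.2 to 17.8). The share over all 13945 protein-coding genes was 24.3%. The difference was of like size in replicate 1, with 29.3% of genes in a pair against 12.6% of the others, and in replicate 2, with 25.7% of genes in a pair against 10.9% of the others. A gene in a pair can be counted for a peak that lies nearer to its partner, and which of the genes a peak belongs to cannot be told from its position. The X chromosome held few such peaks: 76 of its 1262 peaks (6.02%, 4.77 to 7.48), against 10.9% to 13.1% on the large autosome arms. On X 81 of 410 divergent pairs had a peak (19.8%, 16.0 to 23.9), against 28.4% to 33.3% on those arms, although the share of genes in a divergent pair was 36.2% on X and 36.5% to 37.5% there.

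Most summits lay in the DNA between the starts. This was so for 552 of the 790 (69.9%, 66.5 to 73.1), while that DNA made up 37.8% of all positions within 500 bp of both starts. A place upstream of a start was not particular to pairs. At divergent pairs 70.8% of summits lay at or upstream of the nearer start, against 67.5% for the nearest start at single-strand promoters. The 552 include all 69 peaks with starts 501 to 1000 bp apart, for which the rule allows no other position. With starts 201 to 300 bp apart 201 of 242 summits lay between them (83.1%), in DNA that made up 34.2% of the positions allowed. The median summit in this group was 38.8 bp from the midpoint, 89 bp upstream of the nearer start and 165 bp upstream of the other. These peaks also had the highest median signal value, 149 (95% interval 133 to 166), against 109 with starts 1 to 100 bp apart, 100 with 101 to 200 bp, and 120 with 301 to 500 bp. The interval overlapped that of starts 501 to 1000 bp apart (median 125, interval 103 to 171) and that of overlapping starts (105, 89.4 to 162). Their share held by both replicates was 66.5% (60.2 to 72.4).

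At closely spaced starts the summit lay to one side. With 1 to 100 bp between the starts 11 of 103 summits lay between them (10.7%), in DNA that made up 6.19% of the positions allowed. The median summit was 62 bp inside 1 gene and 115 bp upstream of the start of the other. The CG7632 and CG11309 pair is an example, with 39 bp between the starts and the summit 91 bp inside CG11309 and 130 bp upstream of CG7632. Another is mRpL23 and CG9004, with 50 bp between the starts and the summit 68 bp inside mRpL23 and 118 bp upstream of CG9004. With 101 to 200 bp 44 of 90 summits lay between the starts (48.9%), in 16.7% of the positions allowed. With 301 to 500 bp the summit was again between them at 218 of 261 peaks (83.5%), in 61.7% of the positions allowed. It was nearer to 1 start, at a median of 96 bp upstream of the nearer and 289 bp upstream of the other.

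At single-strand promoters the median summit lay 86 bp upstream of the nearest start (interquartile range 206 bp upstream to 37.2 bp inside). The 552 peaks with the summit between the starts had a median signal value of 139 (95% interval 129 to 153), and the 238 others 92.5 (88.1 to 105). In replicate 1 the medians were 80.3 between the starts and 60.4 outside, and in replicate 2 they were 63.6 between and 49.7 outside. Position and signal value moved together: from the lowest to the highest quintile of the list 43.1%, 58.4%, 76.9%, 78.1% and 80.0% of the summits lay between the starts. These comparisons include the 69 peaks with starts 501 to 1000 bp apart, whose summits the rule places between the starts. The lowest quintile also holds the 34 peaks with a value under 20, nearly all of them weak companions. Without these 34 the share of all summits between the starts was 72.5%, against 69.9% with them.

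**Figure D4:**
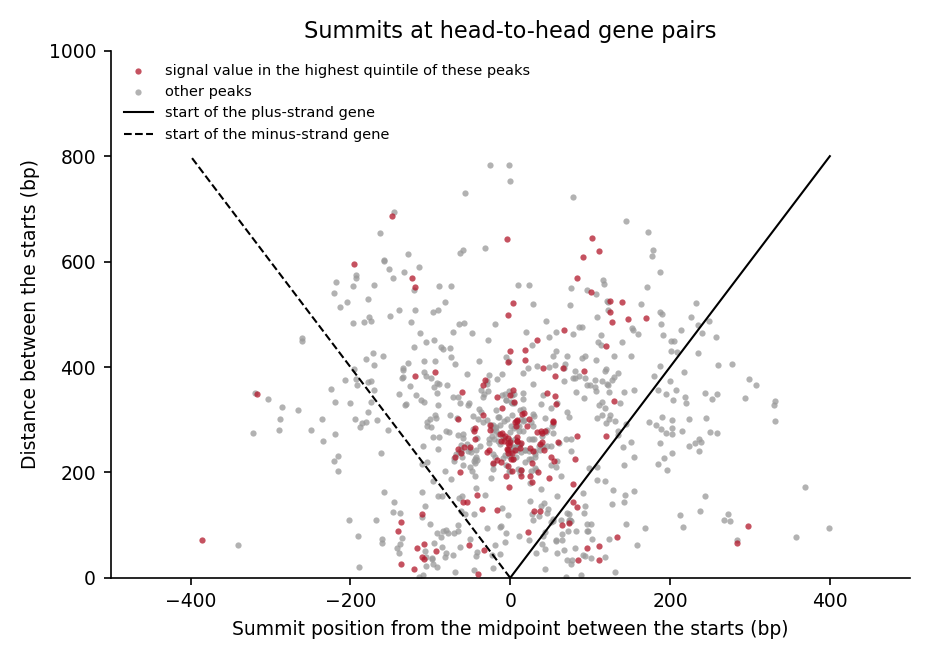
Distance between the starts (bp) against the position of the summit from their midpoint (bp) for the 765 head-to-head peaks; the plus-strand gene begins at the solid line and runs to the right, the minus-strand gene begins at the dashed line and runs to the left, and red points are the highest quintile of these peaks by signal value. Red points gather around the midpoint where the starts are 201 to 300 bp apart and lie outside the lines where they are closest.

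The sequence at the summits was rich in A and T. In windows of 50 bp either side of the summit the median GC content was 31.7% at divergent pairs (interquartile range 25.7 to 40.6), against 39.6% at single-strand promoters (30.7 to 49.5) and 32.7% elsewhere (27.7 to 40.6). At divergent pairs it was 39.6% in the lowest quintile of signal value and 26.7% in the highest. A similar fall was seen over all peaks, from 42.6% to 28.7%. At single-strand promoters it went from 44.6% to 29.7%, and elsewhere from 40.6% to 29.7%. Windows centred on the nearer start of the same pairs had 44.6%, while those at the midpoints of the 792 annotated pairs with a peak had 29.7%, against 33.7% for the 1928 pairs with none. Base composition therefore differs between the places compared, and it changes how often any motif is met by its letters alone.

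Motifs were searched on both strands in windows of 101 bp. The BEAF-32 core CGATA was in 147 of 790 summit windows at divergent pairs (18.6%, 16.0 to 21.5), against 15.0% at single-strand promoters (13.6 to 16.5) and 10.1% elsewhere. The share over all peaks was 12.6%. TATCGATA, the DNA replication-related element bound by DREF, which holds a CGATA on either strand, was in 21 windows (2.66%, 1.65 to 4.03), against 1.40% at single-strand promoters and 0.0737% elsewhere, with 0.789% over all peaks. The motif 1 letters GGTCACAC were in 18 windows (2.28%, 1.36 to 3.58), against 1.27% at single-strand promoters and 0.221% elsewhere, again with 0.789% over all peaks. An example of each, with no annotated exon in the window, is shown with the motif in capitals and 20 bases on either side, on the plus strand of dm6. The RpS25 pair, with the ribosomal protein gene, had a signal value of 299 and the Gfat2 and Moca-cyp pair 103.
RpS25 and CG4820, chr3R:11216319-11216366: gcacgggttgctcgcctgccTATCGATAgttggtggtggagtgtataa
Gfat2 and Moca-cyp, chr3R:28339845-28339892: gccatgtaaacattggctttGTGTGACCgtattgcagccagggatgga

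These elements were more frequent at the starts than at the summits of the same 790 peaks. Windows centred on the nearer start held CGATA in 33.2% of cases and on the farther start in 37.8%, against 18.6% at the summit. The corresponding shares for TATCGATA were 9.11% at the nearer start, 11.4% at the farther and 2.66% at the summit. For motif 1 they were 9.37%, 8.61% and 2.28%. The E-box CAGCTG followed the same order, with 16.7%, 18.5% and 5.44%, the last against 3.92% over all peaks. The TATA letters TATAAA went the other way, with 11.1% at the nearer start, 11.3% at the farther and 25.1% at the summit (22.1 to 28.2). Here the share over all peaks was 20.7%, with 17.2% at single-strand promoters. Among annotated pairs, the midpoints of those with a peak held TATAAA in 23.7% (20.8 to 26.9), against 21.9% (20.1 to 23.8) in those without one. CGATA was at 21.8% of the midpoints with a peak (19.01 to 24.9) and at 23.7% of those without (21.8 to 25.7), and TATCGATA at 4.67% of those with a peak (3.31 to 6.38) and 4.98% of those without (4.05 to 6.05). Motif 1 was at 2.78% of the midpoints with a peak (1.75 to 4.18) and at 2.70% of those without (2.02 to 3.52). For each of these motifs the intervals of pairs with and without a peak overlapped.

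The GAGA element GAGAG was in 8.35% of the summit windows at divergent pairs (6.52 to 10.5), against 16.6% at single-strand promoters (15.1 to 18.2) and 12.6% over all peaks. The low share was also met at annotated divergent pairs without a peak. Their midpoints held GAGAG in 8.25% (7.06 to 9.57), and those of pairs with a peak in 6.82% (5.16 to 8.80). The published Huckebein core CACGCCC was in 4 of the 790 (0.506%, 0.138 to 1.29), against 0.890% at single-strand promoters and 0.762% over all peaks, so no difference was detectable at this number of peaks. The letters AGGTAG and CAGGTAG, which holds AGGTAG, bound by the early embryonic activator Zelda, were in 2.28% and 0.633%, against 1.94% and 0.582% over all peaks. A match of letters is a description of the sequence and does not show that a factor was bound.

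**Figure D5:**
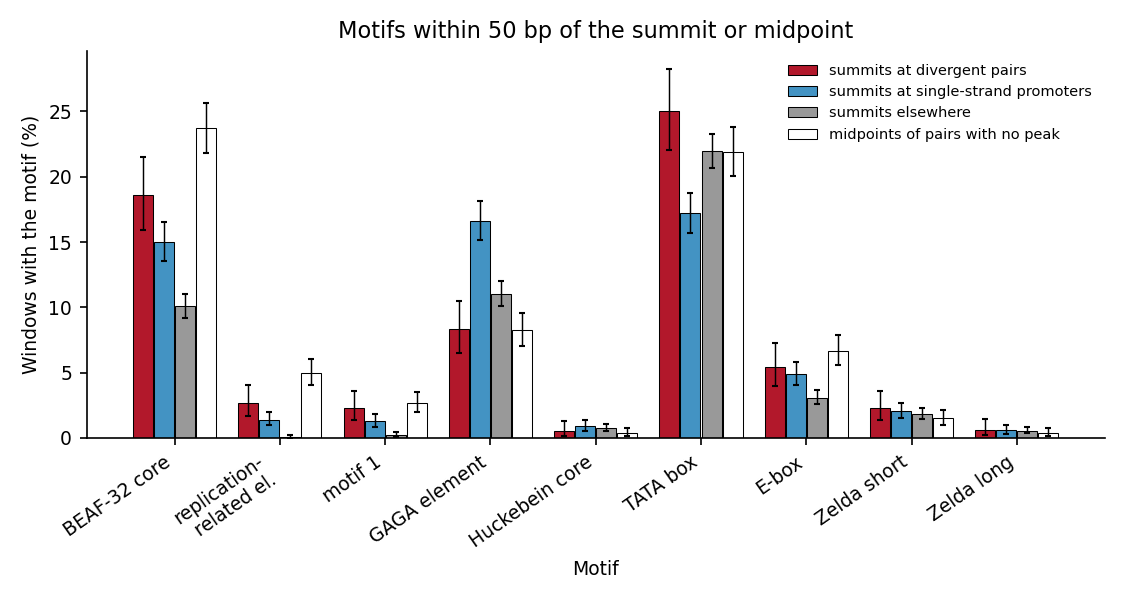
Share of windows of 50 bp either side (%) that hold each motif on either strand, with exact 95% intervals, for summits at divergent pairs (red), at single-strand promoters (blue), elsewhere (grey), and for midpoints of divergent pairs with no peak (white). The red bar is highest for the TATA box, at 25.1%, and lies under the white bar for the BEAF-32 core, at 18.6% against 23.7%.

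Genes of several basic cell machineries, taken here as lists by name, were met at these peaks. Of all 13945 protein-coding genes, 1502 had a start within 500 bp of 1 of the 790 summits (10.8%). Cytosolic ribosomal protein genes did so in 29 of 92 cases (31.5%), mitochondrial ribosomal protein genes in 19 of 73 (26.0%), aminoacyl-tRNA synthetase genes in 10 of 33 (30.3%) and Mediator subunit genes in 7 of 25 (28.0%). Genes of the respiratory chain and ATP synthase did so in 15 of 80 cases (18.8%), proteasome genes in 9 of 48 (18.8%), basal transcription genes in 7 of 37 (18.9%), insulator and architectural protein genes in 4 of 15 (26.7%), DNA replication genes in 3 of 25 and translation factor genes in 5 of 52 (9.62%). The exact 95% intervals of 5 of these 10 lists included 10.8%: proteasome (8.95 to 32.6), basal transcription (7.96 to 35.2), insulator and architectural proteins (7.79 to 55.1), DNA replication (2.55 to 31.2) and translation factors (3.20 to 21.03). The proteasome share rests on the combined list: in the list of replicate 2 it was 10.4% (all coding genes 7.86%) and in that of replicate 1 6.25% (all coding genes 8.63%). The shares also move with the distance limit. That of the cytosolic ribosomal protein genes was 16.3% at 250 bp (all coding genes 6.82%) and 53.3% at 1000 bp (all coding genes 15.0%).

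A gene can be counted only where it has a close neighbour on the other strand, and all 10 lists had more of their genes in an annotated divergent pair (from 26 of 52 translation factor genes to 79.5% of mitochondrial ribosomal protein genes) than the 36.9% of all coding genes. Of all genes in such a pair, 36.7% had a summit within 500 bp of a start of their own. Among the paired genes of the lists it was 21 of 58 mitochondrial ribosomal protein genes (36.2%), 15 of 42 respiratory chain genes (35.7%), 9 of 26 proteasome genes (34.6%) and 8 of 25 basal transcription genes (32.0%), shares near that of all paired genes. Paired synthetase genes had such a summit in 11 of 23 cases (47.8%, 26.8 to 69.4). Mediator genes did so in 8 of 19 (42.1%, 20.3 to 66.5). For insulator and architectural protein genes it was 6 of 10 (26.2 to 87.8%). Translation factor genes had one in 8 of 26 (30.8%, 14.3 to 51.8) and DNA replication genes in 4 of 16 (7.27 to 52.4%). These wide intervals all included 36.7%. Paired cytosolic ribosomal protein genes had such a summit in 47 of 55 cases (85.5%, 73.3 to 93.5).

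Of all coding genes with a summit within 500 bp of a start, 44.4% had it at a divergent pair. This was so for all 9 proteasome genes, 19 of 23 mitochondrial ribosomal protein genes (82.6%) and 10 of 12 synthetase genes (83.3%), while the 29 of 71 cytosolic ribosomal protein genes (40.8%) were near the share of all genes. It was also so for 2 of 2 chemoreceptor genes, and for 5 of 17 translation factor genes (29.4%). These shares were not adjusted for how many genes of a list are in a divergent pair. Among the cytosolic ribosomal protein genes the strongest was RpL32 with CG7943 at chr3R:30046111-30046456, whose values were 530 (combined), 284 (replicate 1) and 235 (replicate 2). Its summit lay 121 bp upstream of RpL32 and 188 bp upstream of CG7943. RpL41 with NaCP60E had 428, 249 and 182, and RpL7 with Ripalpha had 419, 249 and 181 in the combined list, replicate 1 and replicate 2. The mitochondrial ribosomal protein gene mRpL23 followed mRpS23 and mRpS10, with 1024 in the combined list.

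In the respiratory chain, ND-ASHI, a subunit of complex I, shared a peak with Fum1, which encodes fumarase, at chrX:6679249-6679507. Its values were 548 (combined), 317 (replicate 1) and 224 (replicate 2), and the summit lay 257 bp upstream of Fum1 and 265 bp upstream of ND-ASHI. The complex I genes ND-24 and ND-51 had 232 and 225. Rpn3, Rpn13 and Rpn5, subunits of the proteasome's regulatory particle, had 336, 131 and 116. The synthetase genes GluProRS, IleRS and SerRS had 356, 302 and 264. Mediator genes MED30, MED27 and MED17 had 319, 244 and 173, and the transcription genes Polr2B (an RNA polymerase II subunit), Taf5 and TfIIA-L had 302, 282 and 278. All of these were in both replicates' thresholded lists.

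Among architectural protein genes Chro stood at the head of all 790 peaks. Cp190, a cofactor of insulator proteins, shared a peak with CG4338 (582 combined, 322 in replicate 1, 254 in replicate 2). Dref, which encodes the factor that binds TATCGATA, shared a peak with the ribosomal protein gene RpL13 (278, 156 and 102). This was 1 of 3 peaks whose genes were both on these lists, the others being eIF1 with RpL28 (201) and Prosbeta2 with mRpL39 (73.1). The DNA polymerase delta subunit gene PolD2 with CG13933 had 662, while PolE4 (102) was held by replicate 2 and PCNA2 (76.9) by neither replicate. The translation factor genes eIF3h, eIF1 and eIF3a had 225, 201 and 102.

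Few peaks at divergent pairs involved the remaining lists. Of 115 histone genes 87 are in an annotated divergent pair, and 1 had a peak there, His2Av with ball (224). Most histone genes of the fly lie in a tandem array of near-identical copies, whose counts are uncertain because short reads cannot tell the copies apart. Chemoreceptor genes had 2 of 179, Ir60e (109) and the carbon dioxide receptor gene Gr63a (57.4), and neither replicate held the Gr63a peak. Each replicate's own list had 1 of the 179. None of 70 cuticle protein genes had one (upper end of the exact 95% interval 5.13%), and none of 25 developmental regulators (13.7%). Only 5 of the cuticle genes and 2 of the developmental regulators are in a divergent pair at all, and 8 of the 25 regulators had a summit near a start outside such pairs. For hkb itself the nearest coding start on the other strand is 8694 bp away, so it is in no pair, and it had 1 summit within 500 bp of its start.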

How the data were processed

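Peak lists from ChIP-seq of 2 biological replicates (1 group, whole embryos, fragments of 200 to 800 bp, per the labels) were used on dm6. The authors deposited a signal value per peak, used here as a score. The ranked lists also carry −log10 of the irreproducible discovery rate (IDR), deposited by the authors, and listed peaks have at least 2. No aligner or peak caller was given in the sources used here, and read depth is unknown. The labels' possible control was not used.

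From these, summits were set against Ensembl release 115 coding starts on 2L, 2R, 3L, 3R, 4 and X, and sequences were read from the RefSeq Release 6 assembly, whose arms held every peak; coordinates count from 1. Intervals are exact binomial (95%), for medians by order statistics, and cover counting error only. No test was made across conditions. Gene lists were taken by name (1 of 26 developmental symbols matched no gene). Named peaks were the 10 strongest, the 5 weakest, up to 3 genes per list and the edges of the rule. Alternatives were other distance limits, 1 start per gene, each replicate's own list, stronger peaks, summit distance in place of overlap and other motif windows. Members and lists were chosen with earlier results of these data known. Classification and motif search were tested on simulated peaks and windows (Python 3.11.15, pandas 2.3.3, scipy 1.17.1). Labels do not say which embryos were collected together, so replicate spread may be technical.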

Additional observations from a re-analysis of the deposited data

Results flagged for a closer look

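Outside the combined list, 19 candidates of the series' ranked list lay at divergent pairs, passed the IDR threshold that all listed peaks pass, and were not listed. They were 2.35% of the passing candidates at divergent pairs, against 2.27% over all classes (168 candidates). Of the 19, 14 were on 3R, as were 111 of the 168 (66.1%), while 26.6% of the listed peaks at divergent pairs were on that arm. The strongest were at CG18428 and eIF4EHP, a translational repressor (signal value 1126, chr3R:24109011-24109392), at pont, a chromatin remodelling ATPase, and Sirt6 (440), and at RpL13A and Spec2 (222). Their median was 108. The reason for their absence from the list was not tested.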

How the results depend on the processing

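No paired analysis was possible because there is 1 group. Of 272 alternative values 217 stayed within the 95% interval of the reported value, or for the count of peaks within 1.5 times it. The 55 others include 6 for single gene lists: cytosolic ribosomal protein genes with 16.3% at 250 bp and 53.3% at 1000 bp, synthetase genes with 15.2% and chemoreceptor genes with 0.0% at 250 bp, translation factor genes with 21.2% at 1000 bp, and proteasome genes with 6.25% without replicate 2 (10.4% without replicate 1). The values have no direction of their own, but some lists changed sides against all coding genes at the same setting. Proteasome and DNA replication genes, above that share in the reported values, were below it without replicate 2 (6.25% and 8.0%, against 8.63%). Translation factor genes, below it in the reported values, were above it at 1000 bp (21.2% against 15.0%). With a limit of 250 bp there were 469 peaks, 25.02% of pairs with a peak, a median signal value of 142, 62.3% held by both replicates, a GC content of 28.7%, 6.82% of genes and an E-box share of 3.84%. With 1000 bp the median was 112, 54.1% were held by both replicates, 62.6% lay between the starts, the TATA box share was 21.4%, GC content 34.7% and genes 15.0%. One start per gene gave 63.6% between the starts and 9.87% of genes. Pairs with starts at most 500 bp apart had a peak in 35.9%, and summits within 100 bp of each other left 54.7% held by both replicates. Peaks at or above the list's median signal value had a median of 193, 87.6% held by both replicates, 78.4% between the starts, GC content 28.7%, TATA box 30.9%, E-box 3.78%, motif 1 0.630% and Huckebein core 0.0%.

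Each replicate's own list in place of the combined one gave 564 to 622 peaks, 21.3% to 23.3% of pairs, medians of 74.5 to 85.9, each on its own scale, and 7.86% to 8.63% of genes; the shares were 72.03% to 73.9% between the starts, 1.06% to 2.09% for motif 1 and 5.85% to 8.68% for GAGA, with GC content 29.7% to 30.7%. Motif shares moved with the window: 25 bp either side gave 9.75% for the BEAF-32 core, 1.39% for the replication-related element, 1.27% for motif 1, 4.43% for GAGA, 12.4% for TATA and 3.42% for the E-box, and 100 bp gave 40.3%, 9.49%, 5.70%, 15.4%, 40.9% and 14.6%, 3.797% for AGGTAG and GC content 34.3%. Leaving out the weak companions (signal value of at least 20, chosen after seeing the data) gave 756 peaks and changed none of these values beyond their intervals. The causes of these shifts were not tested. Without read totals, depth sets no limit that can be stated, and shares of a few peaks, such as 4 of 790, are the least certain.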
